A study of Mus musculus with 12 samples.

Results

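Most of the 33 genes described here encode the synaptonemal complex, the chromosome axis, the meiotic cohesins, the telomere attachment complex and the crossover and strand exchange machinery. The others are RNA regulators of meiotic entry, a kinetochore gene and genes of break signalling. The 33 were taken as the rows of the deposited gene table whose symbol was on a list of 33 members, out of 20788 genes in all. All 33 were found and passed the filter on low counts. The samples were testes of F1 mice of a strain given as "IRC mouse", and total RNA was sequenced. The study asked how a virus carrying a construct for overexpression, or one for inhibition, of the long non-coding RNA lncRNA8276 bears on the testis transcriptome. The 4 groups of 3 libraries each carry the treatment names 8276OV (overexpression), 5NC, 8276KD (knockdown) and 3NC. From the order in the design text, 5NC was taken as the control of 8276OV and 3NC as the control of 8276KD, and what the control viruses carried, the age of the animals and the number of animals behind each library are not stated in the labels. No label says that the 3 libraries of a group came from separate animals, so the p-values measure the spread between these libraries, which may be technical. Because lncRNA8276 was not analysed here, no check of the treatment labels against their target was made. Below, a library is named by its group and replicate number, for example 5NC 2.

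In male meiosis, homologous chromosomes are organised as loops along protein axes, are cut on purpose by programmed breaks, and find each other as the breaks are repaired by strand exchange. The synaptonemal complex then zips the axes together along their length, and a small subset of repair events matures into crossovers that hold the homologues until they separate. In the testis many of these genes, though not all, are read mainly in spermatocytes. For those, in bulk RNA a lower value may come from fewer spermatocytes or from less RNA in each, and the 2 cannot be told apart.

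Promoter sequences of 4 members are shown because Syce2 and Syce3 had the largest fold changes of the 33 in one comparison and because Stag3 and Hormad1 hold matches to an E2F-type site and an E-box. The sequences are from RefSeq, build GRCm38.p6, and run from 250 bases before to 50 bases after an annotated start, 5′ to 3′ on the strand of the gene. Capitals mark matches, on either strand, to GCGGGAA, an E2F-type site whose other strand reads TTCCCGC, to CACGTG, an E-box, or to CNCCTCAG, a motif described for the meiotic entry factor STRA8. For Syce2 the inner of 2 annotated starts is shown, because its window holds the marked motifs, and for the other genes the outermost start. In the Syce2 window the match to CNCCTCAG overlaps the match to GCGGGAA.
Syce2, chr8:84872008-84872307, plus strand: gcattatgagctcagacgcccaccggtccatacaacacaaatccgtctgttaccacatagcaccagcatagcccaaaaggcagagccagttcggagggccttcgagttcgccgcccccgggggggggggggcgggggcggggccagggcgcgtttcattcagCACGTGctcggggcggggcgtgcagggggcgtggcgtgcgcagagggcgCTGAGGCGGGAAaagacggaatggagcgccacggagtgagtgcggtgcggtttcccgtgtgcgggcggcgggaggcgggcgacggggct
Syce3, chr15:89410454-89410753, minus strand: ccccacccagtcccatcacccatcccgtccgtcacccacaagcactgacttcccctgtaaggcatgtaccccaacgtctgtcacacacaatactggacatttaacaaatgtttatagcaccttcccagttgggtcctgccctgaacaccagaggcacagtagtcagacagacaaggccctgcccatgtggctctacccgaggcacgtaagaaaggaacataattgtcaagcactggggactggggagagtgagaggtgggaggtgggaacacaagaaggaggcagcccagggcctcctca
Stag3, chr5:138280259-138280558, plus strand: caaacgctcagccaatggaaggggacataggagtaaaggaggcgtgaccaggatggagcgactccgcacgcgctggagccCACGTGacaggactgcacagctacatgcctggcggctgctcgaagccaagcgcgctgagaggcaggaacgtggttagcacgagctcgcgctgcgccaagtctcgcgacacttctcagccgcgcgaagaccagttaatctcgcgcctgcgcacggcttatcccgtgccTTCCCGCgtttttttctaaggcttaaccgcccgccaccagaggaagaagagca
Hormad1, chr3:95559427-95559726, plus strand: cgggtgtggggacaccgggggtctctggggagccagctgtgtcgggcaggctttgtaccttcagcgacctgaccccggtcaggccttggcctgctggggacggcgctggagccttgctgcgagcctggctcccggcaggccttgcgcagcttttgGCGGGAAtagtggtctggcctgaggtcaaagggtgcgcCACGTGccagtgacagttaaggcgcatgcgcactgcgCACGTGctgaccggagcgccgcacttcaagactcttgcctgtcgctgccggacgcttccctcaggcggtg

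The Syce2 window held all 3 marked motifs, for which it was chosen, so its contrast with other windows is no result. No window of Syce3 held any of them. RefSeq promoters were found for 27 of the 33 members, as 32 windows, and not for Majin, Terb2, Meikin, Tex11, Ythdc2 and H2afx. GCGGGAA was in 12 of the 32 member windows (37.5%), from 11 genes, against 4.6% of all 32851 promoter windows of the same length. CACGTG was in 8 member windows (25.0%) against 7.15% of all, and CNCCTCAG was in 7 (21.9%) against 7.94%. The other motifs searched were CAACNG (25.0% of member windows against 35.0% of all), CCGTTA (12.5% against 2.76%), CNGTTNC (53.1% against 42.3%) and TATAAA (9.38% against 13.6%). The rest were CCAAT (50.0% against 37.4%), TGACGTCA (3.12% against 1.79%), GGGCGG (50.0% against 35.7%) and CGCG (71.9% against 38.0%). The motifs were chosen with earlier values for these windows seen, the windows of 1 gene with several starts can overlap, and a match is a description and not a binding site.

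The libraries held 13485479 to 15771655 estimated counts, and the lowest totals were those of 8276OV 2, 5NC 3 and 5NC 2. Of the 20788 genes 16395 were tested. Library 3NC 2 stood apart: its summed leukocyte markers were at 209 normalised CPM, a count scaled to library size, against 17.6 to 26.2 CPM in the other 11. The summed epididymis markers ran from 2.46 to 312 CPM and were highest in 8276KD 1, 5NC 2 and 5NC 3. A list of 6 other pachytene spermatocyte genes, outside the 33, summed to 5530 to 6860 CPM, with the lowest value in 3NC 2 and the highest in 3NC 3, and 6 spermatogonial markers summed to 87.9 to 102 CPM. The 6 round spermatid markers summed to 910 to 983 CPM in 5NC and to 1050 to 1240 CPM in 8276OV, 2 ranges that do not overlap. Nor did those of the spermatogonial markers (89.9 to 97.2 CPM in 5NC, 98.2 to 102 CPM in 8276OV). The leukocyte sums, at 21.7 to 22.5 CPM in 5NC and 22.8 to 26.2 CPM in 8276OV, did not overlap either. Of all genes tested, 22.0% did not overlap between these groups. No gene of these lists passed the test there. Of the 11 marker lists, that of erythroid cells was the one with genes past the threshold: of its 4 genes tested, 1 was higher in 8276OV than in 5NC and 2 were lower in 5NC than in 3NC. The summed erythroid markers were at 48.9 to 56.7 CPM in 5NC, 41.9 to 65.3 CPM in 8276OV and 40.3 to 81.5 CPM in 3NC, and the part of any of these cell types in the values below was not tested.

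All 33 members were read in every library. On the deposited per-length scale (FPKM) the highest mean over the 12 libraries was that of Syce1, a central element protein, at 238 ± 15.4 (SD, n = 12), followed by Sycp3, the axis protein used to stain spermatocytes, at 227 ± 37.8. Syce2 followed at 176 and Syce3 at 165, both also of the central element. The lowest was Rad21l, a meiosis-specific kleisin, at 2.21 ± 0.532, below the crossover factor Rnf212 at 2.81 ± 0.279. The median of the 33 members was 17.3 FPKM against 6.39 FPKM over all genes tested, and 8 members were above the 90th percentile of all genes, 73.0 FPKM. The order was not sharp: of the 32 pairs of neighbours in it, only Mdc1 over Sun1, Terb1 over Mlh3 and Brca1 over Rnf212 had ranges that did not overlap over the 12 libraries. All 6 crossover genes were below the median of the 33, from Mlh3 at 9.29 FPKM down to Rnf212, whereas 4 of the 5 genes of the synaptonemal complex core were above it by a wide margin and Tex12, at 22.3 FPKM, by a small one.

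**Figure D1:**
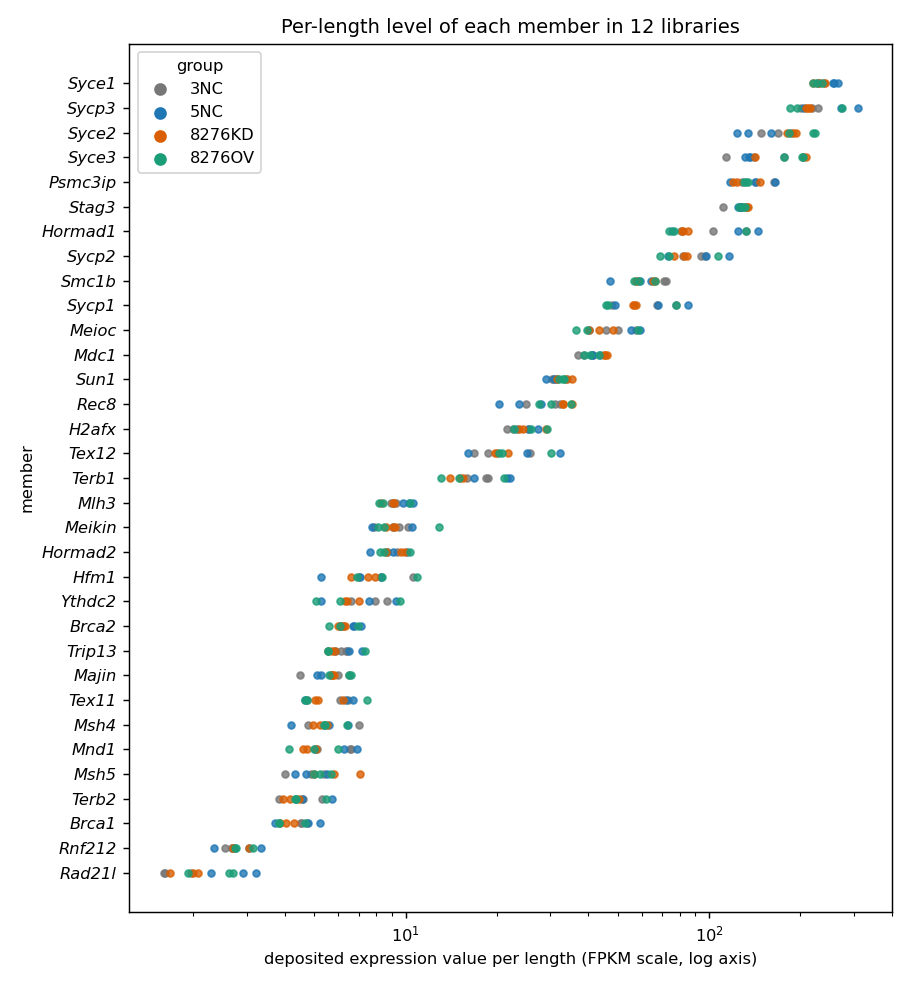
Deposited expression value per length (FPKM scale, log axis) of each of the 33 genes, 1 point per library, coloured by group. Syce1 at 238 and Sycp3 at 227 lie at the top and Rad21l at 2.21 at the bottom. Points of the 4 groups lie among each other for many genes, but those of Syce1 in 5NC and of Mdc1 and Stag3 in 8276KD lie above all others.

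The central question was whether these genes differ with either construct. None of the 33 passed an adjusted p of 0.05 by edgeR's quasi-likelihood test in any comparison. Between 8276OV and 5NC, 3 members had an unadjusted p below 0.05 (9.09%), all 3 higher in 8276OV, against 15.3% of all genes tested in either direction and 8.9% higher, and 0.476% of all genes passed the adjusted threshold. Between 8276KD and 3NC, 1 member did (3.03%) against 8.69% of all, with 0.0183% of all genes past the adjusted threshold. Between the controls 5NC and 3NC, 3 members did (9.09%) against 12.9% of all, with 0.244% past the adjusted threshold. In the difference between the 2 effects (8276OV against 5NC minus 8276KD against 3NC), 1 member had an unadjusted p below 0.05 (3.03%) against 6.73% of all genes, with 0.0183% of all past the adjusted threshold. In the test of any difference among the 4 groups 3 did (9.09%) against 13.8%, with 0.311% past the adjusted threshold. DESeq2 called 2 of the 33 members, Syce2 and Syce3, between 8276OV and 5NC, where it called 5.79% of the genes to which it gave an adjusted p, so that the members' share was near that of all genes. It called Syce2 alone in the test over all groups (4.93% of all genes), and no member between 8276KD and 3NC (0.141% of all), between 5NC and 3NC (1.87%) or in the difference of effects (0.326%). Limma-voom called no member in any of the 5 tests, and in the same order as above for edgeR it called 0.335%, 0.0183%, 0.171%, 0.0183% and 0.305% of all genes. The median log2 fold change of the 33 was 0.000116 in 8276OV against 5NC, -0.0386 in 8276KD against 3NC and 0.00947 in 5NC against 3NC, beside -0.0122, -0.0255 and -0.0178 over all genes. The 95% intervals bounded the changes: they lay wholly within 1.5-fold either way for 24, 26 and 27 of the 33 members in the 3 comparisons (72.7%, 78.8% and 81.8%), against 52.2%, 55.4% and 55.2% of all genes. The comparisons of 5NC with 8276OV and with 3NC share the 5NC libraries, and those of 3NC with 8276KD and with 5NC share the 3NC libraries.

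**Figure D2:**
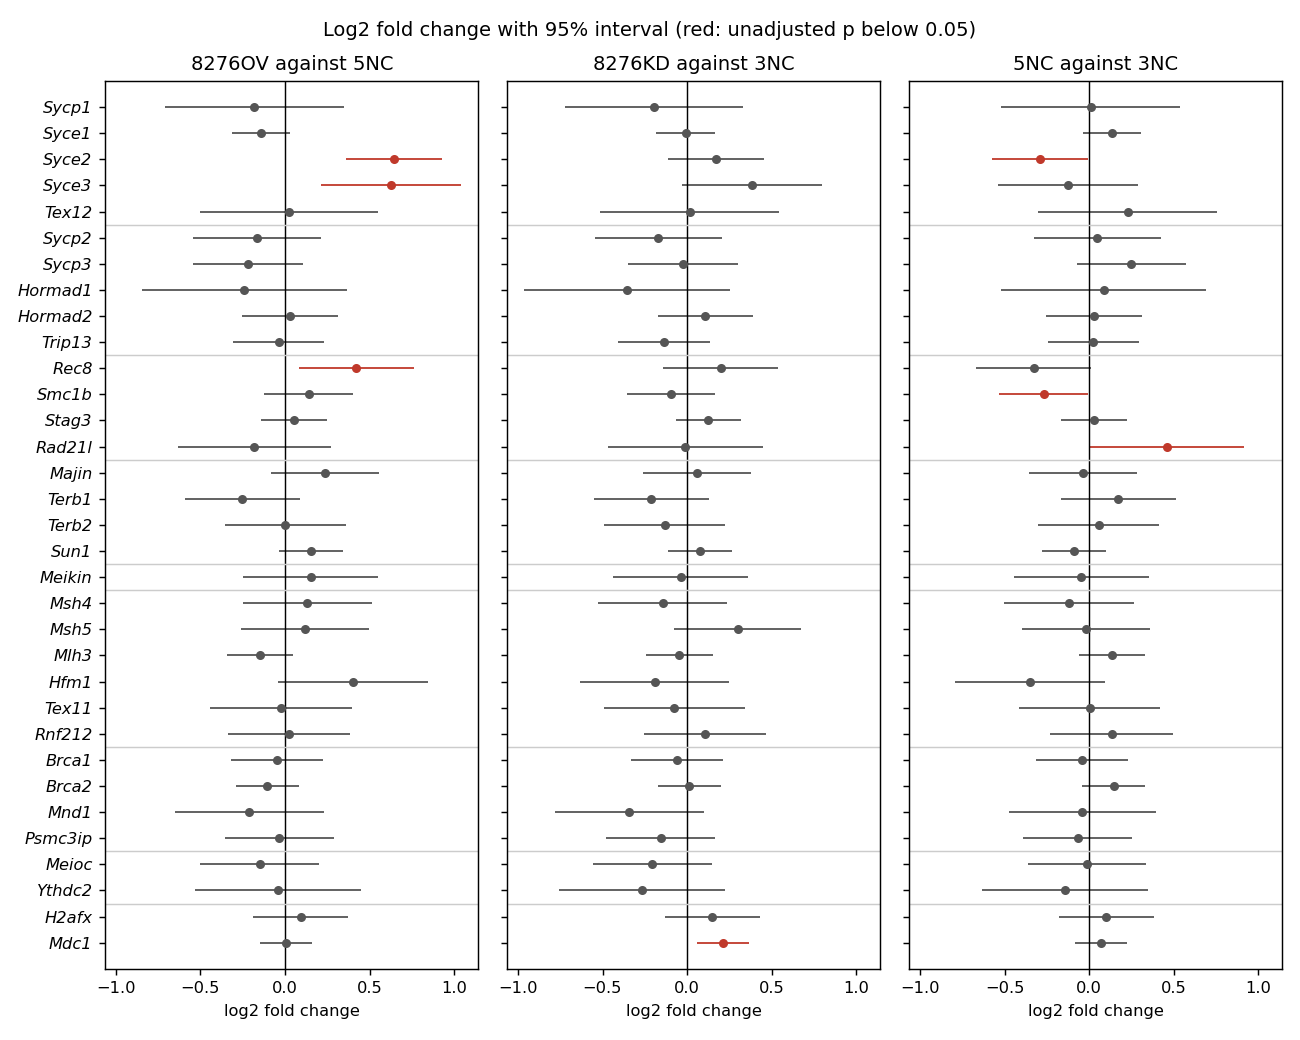
Log2 fold change (x axis) of each gene with its 95% interval from edgeR in 3 comparisons, genes ordered by role and separated by grey lines. Red marks an unadjusted p below 0.05, which held for 3, 1 and 3 of the 33 genes, and no gene passed the adjusted threshold.

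Among the 5 genes of the synaptonemal complex core, the central element genes Syce2 and Syce3 had the largest differences between 8276OV and 5NC. Syce2 encodes a protein that joins the central element and lets the complex extend along the chromosomes, and it lies on chromosome 8 (GRCm38, chr8:84872111-84888221, plus strand). Its levels were 183, 143 and 182 CPM in 8276OV 1 to 3, and 98.4, 123 and 104 CPM in 5NC 1 to 3. They were 151, 154 and 142 CPM in 8276KD and 149, 110 and 139 CPM in 3NC. Every 8276OV library was above every 5NC library, whereas the 3NC libraries overlapped with both ranges and the 8276KD libraries with that of 8276OV alone. The log2 fold change of 8276OV against 5NC was 0.64 ± 0.131 (SE), with a 95% interval of 0.36 to 0.93, and its adjusted p was 0.0599 (edgeR). 8276KD differed from 3NC by 0.17 (adjusted p = 0.645), and 5NC from 3NC by -0.29 ± 0.131 (adjusted p = 0.379).

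The call on Syce2 between 8276OV and 5NC depended on the fit, and of 11 alternatives, not counting the fits that left out 1 library, 5 passed and 6 did not. Its adjusted p was 0.000648 with DESeq2, 0.0400 with total counts in place of TMM factors, 0.0474 with a replicate block, 0.0279 with a GC trend removed from each library and 0.0340 with both of the last. It was 0.0706 with limma-voom, 0.0602 with DESeq2's size factors, 0.0679 with no filter and 0.0641 with only the groups compared. It was 0.106 once 8276OV 2, 5NC 3 and 5NC 2, lowest in total count, had a term of their own. The remaining fit that did not pass left these 3 libraries out. There 5NC 1 alone stood for its group, so that fit cannot show whether the difference depends on those libraries. When each of the 12 libraries was left out in turn, Syce2 passed in 3 fits, without 3NC 2 (0.0188), without 3NC 3 (0.0438) and without 8276OV 2 (0.0298). In the other 9 its adjusted p reached 0.290, and over the 12 fits its log2 fold change stayed between 0.58 and 0.75. The effect of the overexpression comparison exceeded that of the knockdown comparison by 0.47 ± 0.185 for Syce2, and that difference did not pass (adjusted p = 0.678, edgeR). Over all 4 groups the adjusted p of Syce2 was 0.156 with edgeR and 0.003465 with DESeq2.

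Syce3, which helps to load the central element onto the transverse filaments, lies on chromosome 15 (chr15:89390174-89410503, minus strand). It stood at 69.3, 56.8 and 70.6 CPM in 8276OV and at 43.9, 42.5 and 40.9 CPM in 5NC. In 8276KD it was at 45.9, 67.2 and 67.9 CPM and in 3NC at 58, 33.4 and 47.5 CPM. The 8276OV and 5NC libraries did not overlap, and 8276KD and 3NC did. The log2 fold change of 8276OV against 5NC was 0.63 ± 0.19 (95% interval 0.21 to 1.04) with an adjusted p of 0.142 by edgeR. Of the same 11 alternatives 2 passed, DESeq2 (adjusted p = 0.0361) and edgeR on only the 2 groups compared (0.0494), and the other 9 did not, among them limma-voom (0.158), total counts (0.124) and the replicate block (0.134), with values up to 0.777. In 8276KD against 3NC its log2 fold change was 0.38 ± 0.189 (adjusted p = 0.562), and without 3NC 2, where Syce3 was lowest of all 12 libraries, it was 0.19. With each library left out in turn, 8276OV against 5NC passed in 1 of 12 fits, without 3NC 2 (adjusted p = 0.0417), and the adjusted p reached 0.465 in the others.

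The other 3 genes of this group did not share these differences. Sycp1, the transverse filament that spans the complex, was at 160, 208 and 264 CPM in 3NC, 153, 266 and 217 in 5NC, 185, 185 and 182 in 8276KD and 157, 250 and 154 in 8276OV, so that the spread within 3 of the groups was wider than any difference between them. Its log2 fold change of 8276OV against 5NC was -0.18 (adjusted p = 0.798, edgeR). Syce1 was at 300, 297 and 326 CPM in 8276OV, below the 342, 344 and 332 CPM of 5NC in every library, with a log2 fold change of -0.14 ± 0.0791 (adjusted p = 0.446). Tex12, a partner of Syce2 in the central element, ran from 7.73 to 15 CPM with both extremes in 5NC. Within the one structure, Syce2 and Syce3 were higher and Syce1 lower in 8276OV than in 5NC by ranges that did not overlap. Such ranges were found for 22.0% of all genes and 15.2% of the 33 in this comparison. Only Syce2 and Syce3 of the 5 had an unadjusted p below 0.05.

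**Figure D3:**
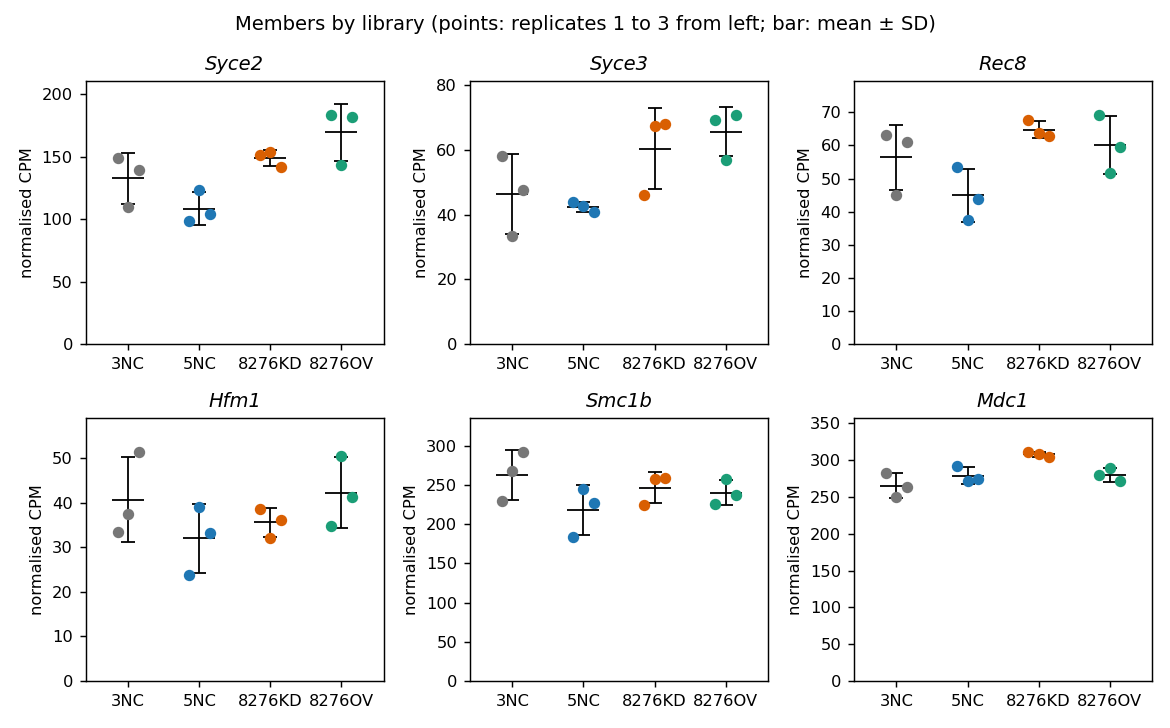
Normalised CPM of 6 genes, 1 point per library in the order of replicate number, with the mean and SD of each group of 3. Syce2 and Syce3 in 8276OV lie above all 5NC points, Mdc1 in 8276KD lies above all 3NC points, and for Rec8, Hfm1 and Smc1b the 8276OV and 5NC points overlap.

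The 4 meiosis-specific cohesin subunits, which bind sister chromatids into the axis, gave 2 unadjusted differences between the controls and 1 with overexpression. Rec8, the kleisin that is cleaved at the meiotic divisions, was at 69.1, 51.6 and 59.6 CPM in 8276OV, 53.6, 37.5 and 43.7 in 5NC, 67.7, 63.7 and 62.8 in 8276KD and 63.1, 45.1 and 61.1 in 3NC. The 8276OV and 5NC ranges overlapped by 1 library each. Its log2 fold change of 8276OV against 5NC was 0.42 ± 0.157 (adjusted p = 0.218, edgeR), and in no left-out fit did it pass. In 5NC against 3NC it was -0.33 ± 0.157 (adjusted p = 0.407). Smc1b, the meiotic form of the SMC1 ATPase, was at 183, 245 and 227 CPM in 5NC and 229, 268 and 292 CPM in 3NC, a log2 fold change of -0.27 ± 0.12 (adjusted p = 0.375), and it was at 226, 257 and 237 CPM in 8276OV and 224, 257 and 259 in 8276KD. Rad21l was higher in 5NC, at 5.15, 6.85 and 6.83 CPM, than in 3NC, at 4.11, 4.13 and 5.41 CPM, with a log2 fold change of 0.46 ± 0.209 (adjusted p = 0.382). Without 3NC 2 the unadjusted p was 0.0782 for Smc1b and 0.104 for Rad21l in this comparison, and that of Rec8 was 0.00734 (adjusted p = 0.143). Stag3, the meiotic STAG subunit that all these complexes use, kept within 428 to 550 CPM and had a log2 fold change of 0.05 ± 0.0894 in 8276OV against 5NC.

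The 5 genes of the axis and its remodelling were alike in having no unadjusted p below 0.05 in any comparison. Hormad1, which marks unsynapsed axes, had the widest interval of the 33 in 8276OV against 5NC, from -0.85 to 0.37, with levels of 119, 200 and 116 CPM in 8276OV and 115, 214 and 186 CPM in 5NC. It was at 124, 149 and 212 CPM in 3NC and at 125, 126 and 129 CPM in 8276KD, so that the libraries of every group but 8276KD lay far apart. Sycp2 and Sycp3, which form the axial element together, had log2 fold changes of -0.17 and -0.22 in 8276OV against 5NC, and -0.17 and -0.02 in 8276KD against 3NC. Exons of Sycp3 overlap those of Chpt1 on the other strand, and those of Psmc3ip overlap Mlx, so reads of these pairs may be mixed if the counting was not stranded. Hormad2 and Trip13, the partner of Hormad1 and the ATPase that strips both from the axis, had log2 fold changes of 0.03 and -0.04 in 8276OV against 5NC. Trip13 was at 12.6, 12.4 and 11.9 CPM in 8276KD, below the 13.9, 12.9 and 13.7 CPM of 3NC in every library (log2 fold change -0.14, adjusted p = 0.689).

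At the telomeres, Majin, Terb1 and Terb2 form the complex that ties chromosome ends to the nuclear envelope, where Sun1 passes on force from outside the nucleus. Majin in 8276OV stood at 9.46, 10.8 and 10.7 CPM against 8.55, 8.89 and 8.85 CPM in 5NC, and Sun1 at 130, 121 and 132 against 110, 117 and 116 CPM. Both sets of ranges did not overlap, with log2 fold changes of 0.23 and 0.15 and adjusted p-values of 0.504 and 0.454. In all, 5 of the 33 members did not overlap between 8276OV and 5NC (15.2%) against 22.0% of all genes, 3 between 8276KD and 3NC (9.09%) against 13.0%, and 2 between 5NC and 3NC (6.06%) against 13.2%. Terb1 was at 36.9, 37.9 and 37.7 CPM in 8276KD, below the 40, 43 and 47.2 CPM of 3NC, with an adjusted p of 0.636. Terb2 had a log2 fold change of 0.000116, the median of the 33, in 8276OV against 5NC.

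Of the 6 crossover genes, Hfm1, a helicase that turns repair intermediates into crossovers, had the largest difference. It was at 34.8, 50.6 and 41.4 CPM in 8276OV, 23.7, 39.1 and 33.2 in 5NC, 38.6, 32.1 and 36.2 in 8276KD and 33.4, 37.4 and 51.4 in 3NC. The 8276OV and 5NC ranges overlapped. The log2 fold change of 8276OV against 5NC was 0.40 ± 0.204 (adjusted p = 0.387, edgeR), and 0.51 with an adjusted p of 0.0442 once the GC trend of each library was removed. It passed in 2 of the 11 alternatives, both with that trend removed, and in none of the 12 fits without 1 library, where the log2 fold change ran from 0.22 without 5NC 1 and 0.25 without 8276OV 2 to 0.57 without 5NC 2. The difference between the 2 effects was 0.60 ± 0.287 (adjusted p = 0.741). Msh5, which with Msh4 forms a clamp on recombination intermediates, was at 19.2, 15 and 13.2 CPM in 8276KD and 13.5, 10.1 and 14.9 in 3NC (log2 fold change 0.30 ± 0.173, adjusted p = 0.573). Tex11, an X-linked protein of recombination sites, and Rnf212, a ligase that marks future crossovers, had log2 fold changes of -0.02 and 0.02 in 8276OV against 5NC. Msh4 itself differed in 8276KD against 3NC by -0.14, and Mlh3, the endonuclease subunit that resolves crossovers, by -0.05. Mlh3 was higher in 5NC, at 52.8, 54.7 and 56.5 CPM, than in 3NC, at 49.4, 48.2 and 51.7 CPM, in every library (adjusted p = 0.559).

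The strand exchange and repair genes gave no unadjusted p below 0.05. Mnd1, the partner of Psmc3ip in loading recombinases, had the largest of these differences, with 3.77, 3.5 and 3.37 CPM in 8276KD and 4.91, 3.51 and 5.07 CPM in 3NC, a log2 fold change of -0.34 ± 0.201 (adjusted p = 0.578). Without 3NC 2 that fold change was -0.49 (unadjusted p = 0.0208, adjusted p = 0.803). Brca2, which delivers recombinases to resected ends, was at 68.4, 71.8 and 68.2 CPM in 5NC against 62.8, 59 and 66.9 CPM in 3NC (adjusted p = 0.506), and did not overlap. Brca1 and Psmc3ip had log2 fold changes of -0.05 and -0.03 in 8276OV against 5NC. The RNA regulators of meiotic entry, Meioc and its partner Ythdc2, had log2 fold changes of -0.15 and -0.04 there, and of -0.21 and -0.27 in 8276KD against 3NC. The kinetochore gene Meikin, which protects cohesin at the first division, had changes of 0.15 and -0.04.

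In break signalling, Mdc1, the adaptor that spreads the signal over chromatin marked by phosphorylated H2afx, was the 1 member with an unadjusted p below 0.05 between 8276KD and 3NC. Its levels were 311, 309 and 304 CPM in 8276KD and 283, 250 and 263 CPM in 3NC, with no overlap. The log2 fold change was 0.21 ± 0.0714 (95% interval 0.06 to 0.37), which was the narrowest interval of the 33, and the adjusted p was 0.559. In 8276OV it was at 280, 290 and 271 CPM and in 5NC at 292, 271 and 274 CPM, a log2 fold change of 0.01. Without 3NC 2 the value in 8276KD against 3NC was 0.17, and the range of the left-out fits was 0.17 to 0.26. The effect of the overexpression comparison minus that of the knockdown comparison was -0.21 ± 0.101 for Mdc1 (adjusted p = 0.741) and 0.23 ± 0.169 for Smc1b (adjusted p = 0.828). Over all 4 groups, the adjusted p was 0.396 for Mdc1, 0.266 for Syce3 and 0.316 for Rec8 (edgeR). The counts of Mdc1 were fractional in 3 libraries. H2afx itself, which lies at chr9:44334694-44336077, differed by 0.15 in 8276KD against 3NC (adjusted p = 0.677).

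More than the groups, single libraries set the level of the 33 genes together. After each gene was centred on its mean over the 12 libraries, the mean over the 33 was highest in 8276OV 2 (0.18 on the log2 scale), 3NC 3 (0.17) and 5NC 2 (0.13), and lowest in 5NC 1 (-0.16) and 3NC 2 (-0.14). In 3NC 3, 29 of the 33 genes were above their own mean, and in 5NC 1 and 3NC 2 only 9 were. The 5NC 2 library held the highest value of 10 genes, and 3NC 3 and 8276OV 2 each of 7. The 5NC 1 library held the lowest of 11 genes and 3NC 2 of 10. So 3NC and 5NC each held a library among the highest and 1 of the lowest 2. Within groups the median SD over the 33 genes was 0.075 in 8276KD on the log2 scale, against 0.22 in 3NC, 0.206 in 5NC and 0.175 in 8276OV, and over all genes it was 0.107, 0.239, 0.168 and 0.169. For 23 of the 33 genes the smallest SD was that of 8276KD, against 47.7% of all genes.

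**Figure D4:**
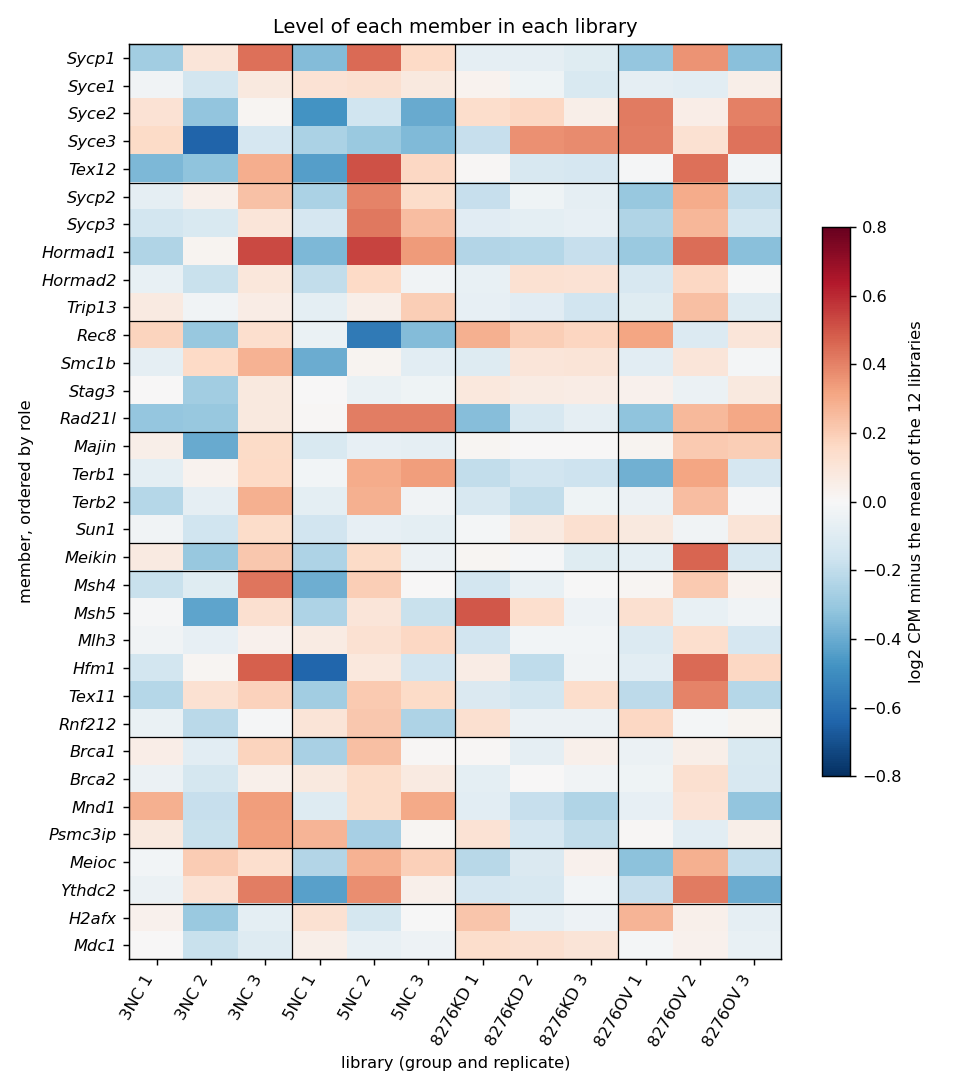
Log2 CPM of each gene minus its mean over the 12 libraries, with genes in rows by role and libraries in columns by group. The columns 3NC 3, 5NC 2 and 8276OV 2 are mostly red (29, 24 and 26 of the 33 genes above their mean), and 5NC 1 and 3NC 2 mostly blue (9 genes above it).

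The direction of each library went with the base composition of the transcripts. The median GC content of the longest coding transcript was 44.3% over the 33 genes and 50.0% over the genes tested. Across the 33 genes, the Spearman correlation of GC content with the centred level was -0.83 in 5NC 2, -0.80 in 8276OV 2, -0.62 in 3NC 2, -0.60 in 5NC 3 and -0.52 in 3NC 3, and it was 0.77 in 3NC 1 and 0.78 in 8276OV 1. The other 5 libraries had correlations from 0.34 to 0.63. Over 15798 genes with a GC value the sign was the same as for the 33 in each of the 12 libraries, with correlations from -0.49 to 0.45. These are descriptions across genes of 1 library, and the genes share its depth and preparation. In 5NC 2 the low-GC genes Sycp1 (34.6%), Sycp3 (34.3%) and Hormad1 (35.8%) were at 0.45, 0.42 and 0.54 on the centred log2 scale, and Rec8 (56.7%) and H2afx (62.3%) at -0.57 and -0.14. In 8276OV 1 the first 3 were at -0.31, -0.24 and -0.30 and the other two at 0.31 and 0.27. Not every library showed these genes on opposite sides of their means: in 3NC 3 Rec8 too was above its mean (0.14), in 8276OV 2 H2afx was (0.04), and in 3NC 2 Sycp3 was below its own (-0.12). Rec8 was below its mean along with the 3 low-GC genes in 5NC 1 (-0.05). So was H2afx in 8276KD 2 (-0.07), 8276KD 3 (-0.04) and 8276OV 3 (-0.07).

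**Figure D5:**
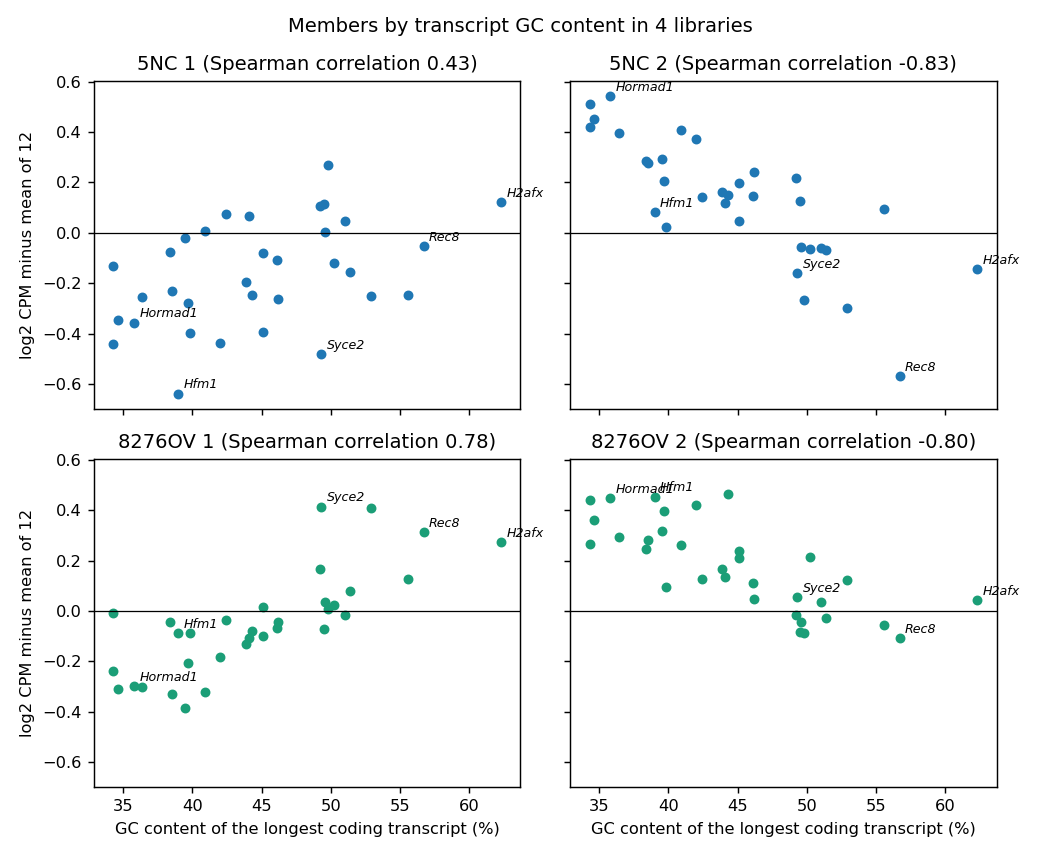
Centred log2 CPM of the 33 genes against the GC content of their longest coding transcript (%), in 2 libraries of 5NC and 2 of 8276OV. The slope is positive in 5NC 1 (Spearman correlation 0.43) and 8276OV 1 (0.78) and negative in 5NC 2 (-0.83) and 8276OV 2 (-0.80).

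With a smooth GC trend removed from each library, an alternative chosen after the data had been seen, the median SE of the fold changes of the 33 genes in 8276OV against 5NC was 0.111 in place of 0.157, smaller for 31 of 33. Syce2 had a log2 fold change of 0.65 in that fit and Syce3 of 0.59 (adjusted p = 0.0864), Rec8 of 0.36 (0.0884) and Smc1b of 0.24 (0.0613). Sycp1 was at -0.04 in place of -0.18. In that comparison 2 of the 33 members passed, Syce2 and Hfm1, against 3.37% of the 15798 genes in this fit (532, beside 78 in the fit without it), and 5 had an unadjusted p below 0.05 against 20.1% of all. In 8276KD against 3NC no member passed (0.0253% of all did), and 2 had an unadjusted p below 0.05 against 9.53% of all. These were Mdc1 at 0.19 (adjusted p = 0.5) and Sycp3 at 0.18 (adjusted p = 0.523), and the median of the 33 was 0.05 in place of -0.04. In 5NC against 3NC no member passed (0.867% of all did), and 6 had an unadjusted p below 0.05 against 17.6% of all: Syce2, Rec8, Smc1b and Hfm1 lower, and Rad21l and Sycp3 higher, the last at 0.23 (adjusted p = 0.145). In the difference between the 2 effects none passed (0.0127% of all did) and 4 had an unadjusted p below 0.05 against 9.84% of all. In the fit without that removal, GC content was also correlated (Spearman) with the log2 fold change across the 33 genes. The values were 0.559 in 8276OV against 5NC, 0.656 in 8276KD against 3NC and -0.338 in 5NC against 3NC. Over the 15798 genes they were 0.207, 0.392 and 0.0659, so the sign differed in the last comparison. Whether the GC trend has any part in the differences of the members was not tested.

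Of 92 symbols of further meiotic genes on a list of related pathway members, 82 were in the table and all 82 were tested. In 8276OV against 5NC 1 of 82 passed by edgeR, Rpa1, lower, where 0.476% of all genes passed, and 16 (19.5%) had an unadjusted p below 0.05 against 15.3% of all. In 8276KD against 3NC none passed (0.0183% of all did), and 3 (3.66%) had an unadjusted p below 0.05 against 8.69% of all. In 5NC against 3NC 1 passed, Rpa1, higher, where 0.244% of all did, and 11 (13.4%) had an unadjusted p below 0.05 against 12.9% of all. DESeq2 called 4, 0 and 4 of the 82 in these comparisons, beside 5.79%, 0.141% and 1.87% of all genes, with Rpa1, Cntd1 and Rad54b among the 4 each time. Limma-voom called 1, 0 and 0, beside 0.335%, 0.0183% and 0.171% of all. Rpa1, the large subunit of the complex that coats single-stranded DNA, was at 206, 208 and 198 CPM in 8276OV, 260, 274 and 283 in 5NC, 208, 199 and 195 in 8276KD and 212, 204 and 208 in 3NC. The 5NC libraries were above all others, which were within 195 to 212 CPM. The log2 fold change was -0.42 ± 0.0671 in 8276OV against 5NC (adjusted p = 0.0248) and 0.39 in 5NC against 3NC (adjusted p = 0.0404), 2 comparisons that share the 5NC libraries. The first held at between -0.45 and -0.39 when each library was left out, and passed in 6 of 12 such fits, with adjusted p-values of 0.0144 to 0.166. It missed the threshold without any 1 of the 3 libraries of 5NC, without 8276OV 1, without 8276OV 3 and without 8276KD 2. The second passed in 1 of 12, without 3NC 2, with adjusted p-values of 0.0435 to 0.234. Cntd1, a cyclin-like crossover factor, was at 166 ± 13.1 CPM in 5NC against 123 ± 11.2 in 8276OV, 125 ± 3.48 in 8276KD and 119 ± 7.56 in 3NC (SD, n = 3), and did not pass (adjusted p = 0.0639 and 0.0542). The median log2 fold change over the 82 was -0.05, -0.05 and 0.02 in the 3 comparisons.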

How the data were processed

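RNA sequencing of 12 testis libraries, 3 in each of 4 groups, was deposited as 1 table of 20788 genes. The authors deposited estimated counts per gene, of which 88.15% are whole numbers, and expression values without a named unit in the header. The deposited expression values behave as FPKM: the transcript length implied by count and value was nearly constant between libraries, with a median coefficient of variation of 0.726% over 10050 genes above 100 counts everywhere. Per the submitters' processing notes, the build is mm10. For the aligner, the counter and its strand setting, the sources used here give no name. Of the per-sample columns, 18 of 9 other samples were not used.

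Counts were rounded, genes with low counts were removed with edgeR's filterByExpr (minimum count 10), library sizes were scaled with TMM factors, and a model of 4 group means was fitted with edgeR 4.0.16 by robust quasi-likelihood in R 4.3.3. Adjusted p-values are Benjamini-Hochberg values over all 16395 genes tested, with a threshold of 0.05. CPM are scaled with the TMM factors. The standard error is the log2 fold change divided by the root of the F statistic. DESeq2 1.42.0 and limma-voom (limma 3.58.1) were alternatives, as were total-count scaling, DESeq2's size factors in the edgeR fit, no filter, the compared groups alone, a replicate block and leaving out each library. Full statistics are given for members past the threshold, for the 4 with the smallest p in each comparison and for the highest and lowest level per length. The members and lists were chosen with earlier results of these data known. Replicate libraries differed by more than sampling noise, with a chi-square per degree of freedom of 3.04 to 39.0.

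The fits were also tested on simulated counts with known changes. Of simulated 1.5-fold changes, 21.1% were recovered in 8276OV against 5NC, 19.2% in 8276KD against 3NC and 23.2% in 5NC against 3NC. In the same order, 66.7%, 57.9% and 53% of 2-fold changes were recovered. Of 4-fold changes, 87.9%, 89.2% and 90.8% were. These counts were simulated without a GC trend in any library. With simulated GC trends, 14.3% of 1.5-fold changes in 8276OV against 5NC were recovered when the trend was not removed. When it was removed, 27% were. Most changes of 1.5-fold would thus be missed at the adjusted threshold. Gene positions are from GENCODE M21 and transcript GC content from the longest coding transcript of each gene.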

Additional observations from a re-analysis of the deposited data

How the results depend on the processing

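Genes past the threshold in 8276OV against 5NC were 78, and 163 with total counts only, 742 with DESeq2 and 532 with the GC trend removed. Members past it were 0, and 1 with total counts only, 2 with DESeq2, 1 with only the groups compared and 2 with the GC trend removed. Without the 3 libraries with the lowest totals 5NC keeps 1 library, so no count of that fit is given for comparisons that use 5NC. In 8276KD against 3NC the genes were 3, and 23 with DESeq2, 0 with only the groups compared and 0 without the 3 libraries with the lowest totals. In 5NC against 3NC they were 40, and 68 with total counts only, 305 with DESeq2, 9 with only the groups compared, 6 with a term for the 3 lowest-total libraries and 137 with the GC trend removed. The members' median log2 fold change there was -0.14 with that term. It was -0.15 without those libraries, where 5NC 1 alone stood for its group. In the difference of effects the genes were 3, and 53 with DESeq2, with a members' median of 0.18 with the term. For any difference they were 51, and 770 with DESeq2 (1 member), 29 with the term and 240 with the GC trend removed. With the replicate number as a block, 269 genes and 1 member (Syce2, adjusted p = 0.0474) passed in 8276OV against 5NC, 6 genes in the difference and 88 for any difference; with the block and the GC trend removed the counts were 821 genes and 2 members, 112 in 5NC against 3NC and 260 for any difference. Same-number correlations of deviations ran from -0.125 to 0.313, and 8 of 18 were above 0.1. Of the 3 same-number pairs of 8276OV and 5NC, 2 were above 0.1, and of those of 8276KD and 3NC none. Whether the numbers pair the libraries was not tested. Leaving out each library in turn gave 5 to 521 genes, 0 to 2 members and members' medians of -0.09 to 0.06 in 8276OV against 5NC (521 without 3NC 2, 5 without 5NC 3 or 8276OV 1), 1 to 9 genes and -0.08 to 0.06 in 8276KD against 3NC (9 without 3NC 3), 7 to 126 genes and -0.07 to 0.10 in 5NC against 3NC (126 without 3NC 2, 7 without 5NC 3), 3 to 12 genes and -0.06 to 0.14 in the difference (12 without 3NC 3) and 12 to 175 genes for any difference. No member passed in the main edgeR fit, so there was no passing value there whose sign could change. The members that passed in an alternative of 8276OV against 5NC had the sign of the main fit. Members that did not pass could change sign, as 11 did in 8276KD against 3NC with the GC trend removed. Members past the threshold stayed at 0 in every alternative run for 8276KD against 3NC, 5NC against 3NC and the difference. The term, the removal of 3 libraries and both GC alternatives were chosen after seeing the data. Rpa1 kept its direction throughout. In 5NC against 3NC it missed the threshold with limma-voom, with no filter, with only the groups compared and with the term. In 8276OV against 5NC it missed the threshold with only the groups compared (adjusted p = 0.0538, edgeR). It also missed it without the 3 lowest-total libraries, a fit that leaves 5NC with 1 library. With 3 libraries a group, an unpassed test bounds a change only as far as its interval does.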
